A study of Mus musculus with 24 samples.

Results

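The proteasome is the barrel-shaped protease that degrades ubiquitin-tagged proteins, and its subunits are encoded by the Psma, Psmb, Psmc and Psmd genes. A gene was taken as a member if its symbol was Psma, Psmb, Psmc or Psmd followed by a number and its counts summed to at least 100 over the 24 libraries. There were 39 such genes among the 26667 genes counted, and 39 of 39 passed the filter on low counts, which kept 18286 genes.

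RNA was sequenced from mouse dentate gyrus, a hippocampal region whose granule cells are partly renewed by adult neurogenesis. Of the 5 groups, 4 were APP/PS1 mice, which carry transgenes for the amyloid precursor protein and presenilin 1 and form amyloid plaques. The combined group (5 libraries) had both BCI-838 at 5 mg/kg by mouth each day and free access to a running wheel for 1 month. The exercise group (5 libraries) had the wheel for 1 month without the drug, and the BCI-838 group (4 libraries used here) had the drug without the wheel. The APP/PS1 controls (5 libraries) had neither, and neither did the WT controls (5 libraries), which were C57BL6/J mice per the design text. BCI-838 is an oral pro-drug whose active form blocks mGluR2 and mGluR3, receptors that dampen glutamate release. The sources used here give neither the age and sex of the mice nor the promoter that drives the transgenes. The design text mentions a vehicle without saying which groups received it, and it gives 5 mice per group.

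The 26S proteasome has a 20S core particle, in which rings of alpha subunits (Psma) gate rings of beta subunits (Psmb), and a 19S regulatory particle built of a base and a lid (Psmc and Psmd). Psmb5, Psmb6 and Psmb7 carry the proteolytic activity, and interferon-gamma replaces them with the immunoproteasome subunits Psmb8, Psmb9 and Psmb10, which shift the peptides made for MHC class I. The transcription factors Nfe2l1 and Nfe2l2 are known to raise subunit genes in mammalian cells, Nfe2l1 when proteasome activity is inhibited, through antioxidant response elements near the genes. In neurons the proteasome also takes part in the turnover of synaptic proteins, and its activity has been studied in connection with amyloid and tau. In the description below, 34 members are called standard subunits. They are the 39 without Psmb8, Psmb9 and Psmb10, without Psma8, the alpha subunit of spermatocytes, and without Psmb11, the subunit of the thymus.

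Total counts ran from 48656360 to 64632882 per library. App, the transgene's gene, was at 2467 to 4054 CPM in the 19 APP/PS1 libraries and at 1452 to 2073 CPM in the 5 WT libraries. CPM is the gene count scaled to a common library size with TMM factors. The list of 8 granule cell markers had a mean log2 CPM of 3.61 to 6.88 and was lowest in WT replicate 3. Transcripts of the choroid plexus, a tissue next to the hippocampus, were high in 4 libraries. Their marker Ttr was at 297 CPM in replicate 5 of the combined group and at 425 to 1615 CPM in replicates 2, 4 and 5 of the APP/PS1 controls, against at most 15.6 CPM in the other 20. Each comparison below was also fitted without these 4 libraries, and no member was called with or without them. That fit leaves replicates 1 and 3 alone for the APP/PS1 controls, so the lack of calls in it says little about comparisons with that group. Markers with at least 1 library at 0 counts were Folr1 and Slc4a5 of the choroid plexus and Gata3, Pax7 and Pou4f1 of the dorsal midbrain.

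The promoters of 3 catalytic subunit genes are shown as examples of windows with and without the core of the antioxidant response element: the standard genes Psmb5 and Psmb6, and Psmb9, the immunoproteasome counterpart of Psmb6. Each runs 5′ to 3′ from 250 bases before to 50 bases after the start of the RefSeq transcript on GRCm38.p6. Capitals mark the core of that element, searched as TGACNNNGC on both strands. Psmb5 lies on the minus strand at chr14:54617946-54618245, Psmb6 on the plus strand at chr11:70525107-70525406 and Psmb9 on the minus strand at chr17:34187281-34187580.
Psmb5: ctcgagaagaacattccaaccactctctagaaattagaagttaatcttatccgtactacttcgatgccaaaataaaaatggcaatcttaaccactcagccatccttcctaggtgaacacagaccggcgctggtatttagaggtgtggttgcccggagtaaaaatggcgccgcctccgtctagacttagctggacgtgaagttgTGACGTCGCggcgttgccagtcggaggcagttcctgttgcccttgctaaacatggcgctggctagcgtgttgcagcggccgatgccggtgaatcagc
Psmb6: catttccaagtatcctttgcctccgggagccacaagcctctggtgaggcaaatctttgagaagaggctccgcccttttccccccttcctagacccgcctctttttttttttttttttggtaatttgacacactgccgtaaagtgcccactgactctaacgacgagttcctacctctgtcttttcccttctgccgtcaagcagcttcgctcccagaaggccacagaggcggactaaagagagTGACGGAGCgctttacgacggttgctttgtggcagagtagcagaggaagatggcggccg
Psmb9: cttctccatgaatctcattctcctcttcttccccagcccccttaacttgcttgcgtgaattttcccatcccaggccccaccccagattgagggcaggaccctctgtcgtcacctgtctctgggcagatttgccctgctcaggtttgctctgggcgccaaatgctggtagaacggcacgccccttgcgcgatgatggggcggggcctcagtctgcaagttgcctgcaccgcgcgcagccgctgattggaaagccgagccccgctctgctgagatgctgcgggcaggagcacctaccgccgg
In Psmb5 the match began 47 bases before the start and in Psmb6 9 bases before it, and the window of Psmb9 held none. The GENCODE M21 model of Psmb9 (chr17:34181987-34187764) starts upstream of this RefSeq start, 211 bases from the start of Tap1 on the other strand. Psmb8 lies beside them at chr17:34197721-34201454. The 39 members are spread over 16 chromosomes (GENCODE M21, GRCm38), and 11 overlap exons of another gene. RefSeq promoters were matched for 32 of the 39 members, 34 windows in all. The core was present in 5 of them (14.7%), those of Psmb5, Psmb6, Psmc6, Psmd9 and Psmd12, against 12.4% of all 32851 promoter windows of this length. The CCAAT box, searched as CCAAT on both strands, was in 13 member windows (38.2%) against 37.4% of all windows. The letters GAAA, 2 bases of any kind and GAAA again, a simple form of the element bound by interferon regulatory factors, were in 3 member windows (8.82%), those of Psmb3, Psmd4 and Psmd9, against 3.44% of all windows. These are matches of letters only.

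The members took between 0.242% and 0.318% of all counts of a library. Per kilobase of transcript, the 34 standard subunits spanned a 12.3-fold range, from 8.63 CPM per kb for Psmd10 to 106 CPM per kb for Psmc5, with a median of 51.8 CPM per kb (mean level over 24 libraries). The 7 alpha ring genes lay between 23.2 CPM per kb for Psma2 and 85.5 CPM per kb for Psma7. The assembled ring holds these proteins in equal number. The order of these genes depends on the annotated lengths, 2911 bases for Psma2 and 2846 for Psma3 against 914 for Psma7. Before division by length the 7 genes lay between 51.7 CPM for Psma5 and 87.6 CPM for Psma3. The 4 non-catalytic beta genes lay between 56.3 for Psmb2 and 87.6 CPM per kb for Psmb4. Among the catalytic genes Psmb5 was at 61.9, Psmb7 at 86.3 and Psmb6 at 89.1 CPM per kb.

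In the regulatory particle the 6 base ATPases, which unfold the substrate, ran from 20.3 CPM per kb for Psmc6 to 106 CPM per kb for Psmc5. Psmd1 and Psmd2, the base scaffolds, were at 44.2 and 67.4 CPM per kb, and Psmd4, a ubiquitin receptor, at 64.4 CPM per kb. The 8 lid genes, which include the deubiquitinase Psmd14, ran from 17.6 for Psmd11 to 53.5 CPM per kb for Psmd7. The 3 genes of base assembly chaperones, Psmd5, Psmd9 and Psmd10, which leave the finished particle, were the lowest of the standard set at 8.63 to 9.41 CPM per kb.

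The immunoproteasome genes stood far below the genes they replace. Psmb9 was at 1.23, Psmb8 at 2.14 and Psmb10 at 17.1 CPM per kb. Their sum per kilobase was 6.99% to 11.2% of the sum of Psmb5, Psmb6 and Psmb7 over the 24 libraries, and the ranges of all 5 groups overlapped. It averaged 8.46% ± 0.706 in the combined group (SD, n = 5), 8.39% ± 0.966 in the exercise group (SD, n = 5), 9.09% ± 0.804 in the BCI-838 group (SD, n = 4), 8.49% ± 1.26 in APP/PS1 controls (SD, n = 5) and 8.97% ± 1.56 in WT controls (SD, n = 5). Psma8 at 0.160 CPM per kb and Psmb11 at 0.0314 CPM per kb were near the bottom of the measurable range. Psmb11 had between 0 and 18 counts per library, and 2 to 44 counts stood behind each value of Psma8.

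**Figure D1:**
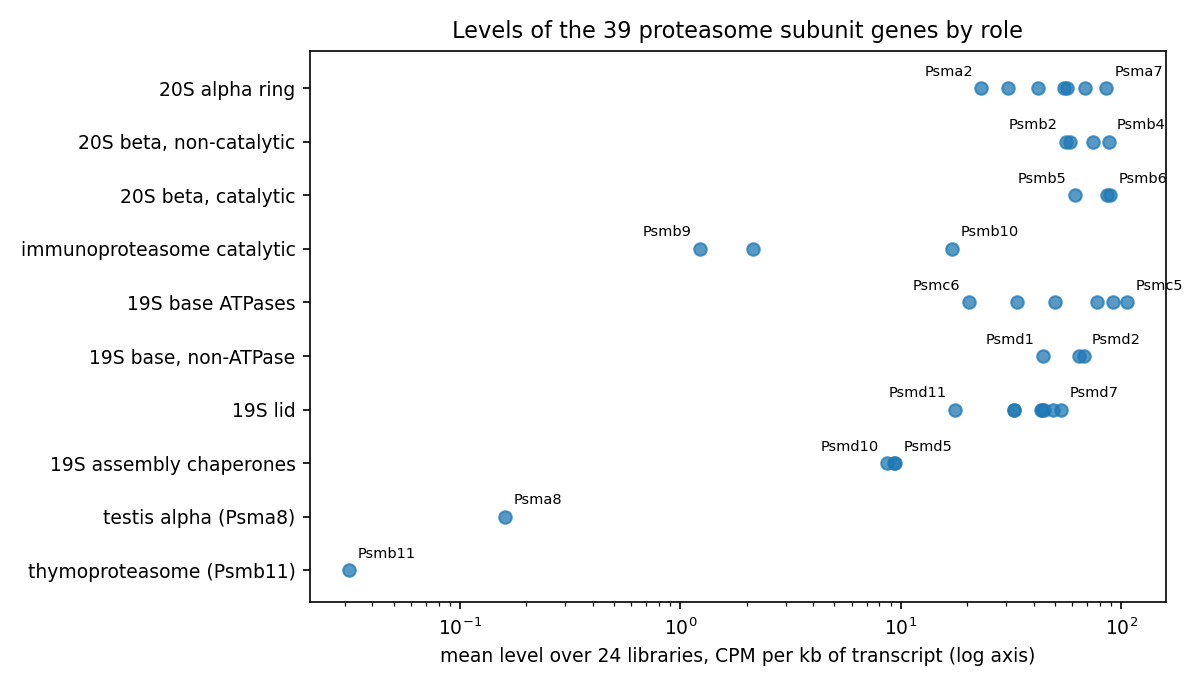
Mean level of each of the 39 members over 24 libraries in CPM per kb of transcript (log axis), 1 row per role, with the lowest and highest gene of each role named. The immunoproteasome genes lie between 1.23 and 17.1 CPM per kb, the genes they replace between 61.9 and 89.1.

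No member was called in any comparison by edgeR's quasi-likelihood test at an adjusted p under 0.05. The test of any difference among the 5 groups also called 0 of the 39 members, against 0.0273% of all genes, and the smallest adjusted p was 0.234 for Psmb2. In this test 8 of the 39 had an unadjusted p under 0.05 (14.1% of all genes did). They were Psmb2, Psma1, Psmb4, Psmb3, Psmb6, Psmd13, Psmd4 and Psmd3. DESeq2 was not run for this test. Limma voom with quality weights called 10 members here, or 25.6% of members against 8.84% of all genes: Psmb2, Psmb3, Psmb4, Psma1, Psma7, Psmb6, Psmd13, Psmd3, Psmd4 and Psmb1.

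**Figure D2:**
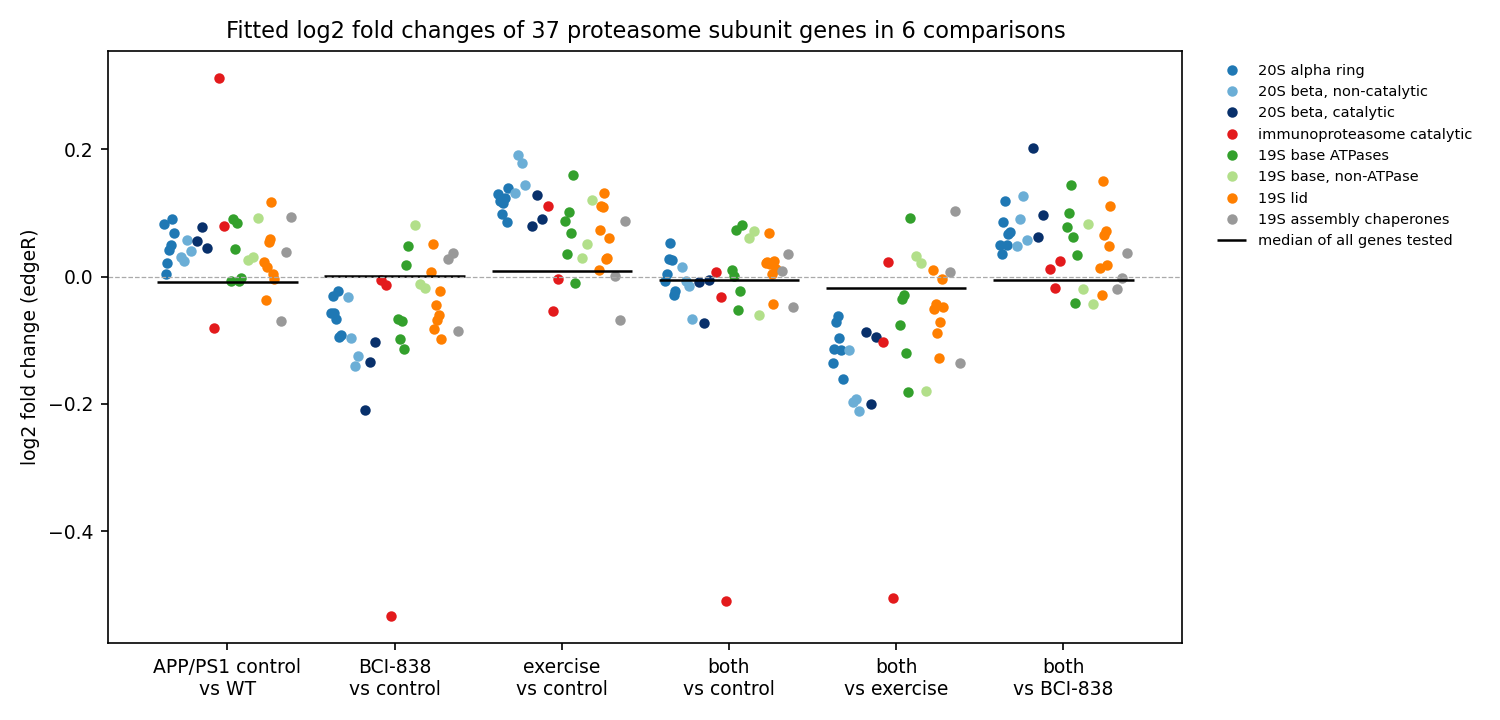
Fitted log2 fold change (edgeR, y axis) of 37 members in 6 comparisons, coloured by role, without Psma8 and Psmb11, whose counts were very low. Black lines mark the median of all 18286 genes. The standard subunits keep between -0.21 and 0.20, and the points farther out are Psmb8 against WT (0.31) and Psmb9 with BCI-838 (-0.53), with both against control (-0.51) and with both against exercise (-0.51).

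The transgenes were set against WT in untreated mice. Of the members, 31 had a fitted log2 fold change above 0 and 8 below, with a median of 0.04 against -0.01 over all genes. Of all genes 47.4% lay above 0. Members vary together between libraries, as described below, so here and in the other comparisons such counts are not counts of separate observations. None of the 39 was called (0.0109% of all genes were), and 0 had an unadjusted p under 0.05 (2.76% of all genes did). DESeq2 and voom called 0 members too (0.0766% and 0.0109% of all genes). In 0 members were the groups free of overlap (0.312% of all genes). For the standard subunits the fitted differences lay between -0.07 and 0.12, and the widest 95% limits of a single gene were -0.23 and 0.28. All 14 genes of the core particle, alpha ring and beta subunits alike, were on the higher side, with medians of 0.05 in the alpha ring, 0.04 in the non-catalytic and 0.06 in the catalytic beta genes. In the regulatory particle 3 of 6 base ATPases, 3 of 3 other base genes and 6 of 8 lid genes were. All 10 choroid plexus markers were also higher in APP/PS1 controls, 9 of them at an unadjusted p under 0.05. Without the 4 libraries high in Ttr the median of the members was again 0.04, but Psmb5 of the core particle then lay at -0.0045 and Psma1 at 0.03. With a choroid plexus covariate the median was 0.07.

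Psmb8, the immunoproteasome form of the chymotrypsin-like subunit, had the smallest p. Its levels were 3.65, 3.37, 3.66, 4.69 and 3.08 CPM in APP/PS1 control replicates 1 to 5, against 4.09, 3.51, 2.10, 2.62 and 2.54 CPM in the WT controls. The 2 highest values were APP/PS1 control replicate 4 and WT replicate 1, so the groups overlapped. On the log2 scale the difference was 0.31 (standard error 0.17, edgeR adjusted p = 1.00). It was 0.21 without WT replicate 3 or without APP/PS1 control replicate 4, and 0.45 without WT replicate 1. Next came Psmc2, a base ATPase, which averaged 61.4 CPM (± 1.85 SD, n = 5) in APP/PS1 controls and 57.7 CPM (± 1.19 SD, n = 5) in WT controls, with a log2 fold change of 0.09 (standard error 0.05, edgeR adjusted p = 1.00), and Psma1, an alpha ring gene, with one of 0.08 (standard error 0.05, edgeR adjusted p = 1.00). Psmb9 had a log2 fold change of 0.08 (standard error 0.24, edgeR adjusted p = 1.00) and Psmb10 one of -0.08 (standard error 0.13, edgeR adjusted p = 1.00). Neither direction was stable: Psmb9 lay between -0.02 and 0.25 over the alternatives, and Psmb10 turned to 0.06 without the 4 libraries high in Ttr. The constitutive genes Psmb5, Psmb6 and Psmb7 were at 0.06, 0.08 and 0.04.

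BCI-838 alone was compared with APP/PS1 controls. Here 7 members lay above 0 and 32 below, with a median log2 fold change of -0.07 against 0.00 over all genes. Of all genes 50.1% lay above 0. EdgeR called 0 of the 39 (0% of all genes), and 0 members had an unadjusted p under 0.05 (10.2% of all genes did). DESeq2 called 0.93% of all genes and voom 2.32%, and neither called a member. All 14 core particle genes were on the lower side, between -0.02 and -0.21, with medians of -0.06 in the alpha ring, -0.11 in the non-catalytic and -0.13 in the catalytic beta genes. In the regulatory particle 4 of 6 base ATPases and 6 of 8 lid genes were lower, and 2 of 3 assembly chaperones higher. Astrocyte markers had a mean log2 CPM of 7.42 to 7.62 in the BCI-838 group, against 7.14 to 7.36 in APP/PS1 controls, with no overlap. Of these 5 markers 4 were higher, 1 at an unadjusted p under 0.05. Of 5 dorsal midbrain markers 4 were higher, 0 at an unadjusted p under 0.05. Their mean log2 CPM was 2.80 to 3.76 in the BCI-838 group, against -1.31 to 3.39 in APP/PS1 controls. Of 8 granule cell markers 4 were higher and 4 lower, 2 of the latter at an unadjusted p under 0.05. Choroid plexus markers were lower in 9 of 10, and 8 of them had an unadjusted p under 0.05. The part of the astrocyte, midbrain and granule cell transcripts in the proteasome values was not tested. The median of the members was -0.05 without the 4 libraries high in Ttr and -0.09 with a choroid plexus covariate. The groups did not overlap for 1 member, the base ATPase Psmc4, which was lower in 4 of 4 libraries of the BCI-838 group (2.2% of all genes were lower without overlap). Psmc4 is named after its values were seen. It was at 69.9, 70.0, 68.0 and 65.04 CPM in the BCI-838 group, against 84.5, 70.1, 72.1, 70.8 and 71.7 CPM in APP/PS1 controls. The highest BCI-838 value and the lowest control value nearly met, and replicate 1 of the controls stood well above the rest. Its log2 fold change was -0.11 (standard error 0.07, edgeR adjusted p = 0.619).

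Psmb9, the immunoproteasome form of Psmb6, had the smallest p for the drug. It was at 1.41, 1.70, 1.09 and 1.04 CPM in the BCI-838 group, against 2.27, 1.70, 1.99, 2.14 and 1.39 CPM in APP/PS1 controls. The groups overlapped through control replicate 5. This came to a log2 fold change of -0.53 (standard error 0.26, edgeR adjusted p = 0.494), with 95% limits of -1.07 and 0.01 and an unadjusted p of 0.0523. Counts of 61 to 99 in the BCI-838 group and 79 to 149 in the controls stood behind these values. Psmb9 overlaps exons of Tap1, a peptide transporter gene on the opposite strand, and the sources used here do not say whether counting used strand. Tap1 itself was at 4.06 CPM (± 0.871 SD, n = 4) in the BCI-838 group and at 4.07 CPM (± 0.628 SD, n = 5) in APP/PS1 controls.

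Psmb5, the constitutive chymotrypsin-like subunit, had the largest log2 fold change of the standard subunits with the drug. It was at 52.1, 50.3, 49.0 and 44.8 CPM in the BCI-838 group, against 59.7, 55.8, 49.1, 55.2 and 63.9 CPM in APP/PS1 controls. BCI-838 replicates 3 and 4 lay below every control and replicates 1 and 2 above control replicate 3 alone. Its log2 fold change was -0.21 (standard error 0.11, edgeR adjusted p = 0.526), and that of Psmc2 was -0.10 (standard error 0.06, edgeR adjusted p = 0.573). Psmb5 to Psmb7 have named pseudogenes, so their counts are less certain. Psmb6 and Psmb7 were at -0.13 and -0.10, and Psmb8 and Psmb10 at -0.01 and near 0.

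The running wheel alone was compared with the same APP/PS1 controls. Of the members 34 lay above 0 and 5 below, with a median log2 fold change of 0.09 against 0.01 over all genes. Of all genes 52.8% lay above 0. EdgeR called 0 of the 39 (0.00547% of all genes), and 5 members had an unadjusted p under 0.05 on the higher side, Psmb2, Psma1, Psmb3, Psmb4 and Psmb1, where 5.44% of all genes did in either direction and 2.37% on the higher side. DESeq2 and voom called 0 members (0.334% and 0% of all genes). The 4 non-catalytic beta genes were all among these 5, with log2 fold changes of 0.13 to 0.19. All 7 alpha ring genes (median 0.12), all 3 catalytic beta genes (0.09) and all 8 lid genes (0.07) were also on the higher side. Of the base ATPases 5 of 6 were (0.08), and of the assembly chaperones 2 of 3. In 0 members were the groups free of overlap (0.585% of all genes). All 6 endothelial markers were higher too, 3 of them at an unadjusted p under 0.05, with a mean log2 CPM of 5.00 to 5.41 in the exercise group, against 4.76 to 5.18 in APP/PS1 controls. All 10 choroid plexus markers were lower, 9 at an unadjusted p under 0.05. The share of counts on Lars2 and Mir5105, genes that can collect ribosomal RNA reads, was 0.167% to 0.230% in the exercise group, against 0.259% to 0.406% in APP/PS1 controls, with no overlap. Over the 24 libraries it had an r of -0.48 with the mean log2 CPM of the standard subunits, and of -0.17 around the group means. The part of the endothelial transcripts and of this share was not tested. Without the 4 libraries high in Ttr the median of the members was again 0.09, and with a choroid plexus covariate it was 0.04.

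Psmb2 was at 57.2, 55.2, 54.2, 46.9 and 58.3 CPM in the exercise group, against 47.6, 52.2, 41.5, 47.0 and 49.9 CPM in APP/PS1 controls. Exercise replicates 1, 2, 3 and 5 lay above every control, and replicate 4 lay among them. The fitted log2 difference was 0.19 (standard error 0.07, edgeR adjusted p = 0.581). Psma1 was at 76.6, 77.0, 69.9, 68.7 and 80.3 CPM in the exercise group, against 68.6, 71.9, 62.8, 65.5 and 71.7 CPM in APP/PS1 controls, and replicates 1, 2 and 5 lay above all controls. It had a log2 fold change of 0.13 (standard error 0.05, edgeR adjusted p = 0.818), and Psmb3 had one of 0.18 (standard error 0.08, edgeR adjusted p = 0.866). The 3 constitutive catalytic genes were between 0.08 and 0.13, and Psmb8, Psmb9 and Psmb10 were at -0.05, near 0 and 0.11.

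The exercise group was the most uneven of the 5. The mean log2 CPM of the 34 standard subunits was 6.31, 6.24, 6.12, 6.06 and 6.33 in its replicates 1 to 5, and between 6.02 and 6.21 in all 19 other libraries. Replicates 1, 2 and 5 were thus the 3 highest libraries of the series and replicates 3 and 4 lay inside the range of the others. The highest of the 24 values fell in exercise replicate 5 for 15 of the 34 standard subunits, in replicate 1 for 10 and in replicate 2 for 2. The lowest of the 24 fell in WT controls for 16 of them, unevenly over the libraries. WT replicate 1 held 8 of these, replicate 4 held 4, replicates 2 and 5 held 2 each and replicate 3 held 0. Exercise replicate 4 also held 4 of the lowest values. Such counts over all genes are not given here, and the standard subunits vary together, so these are not separate observations.

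**Figure D3:**
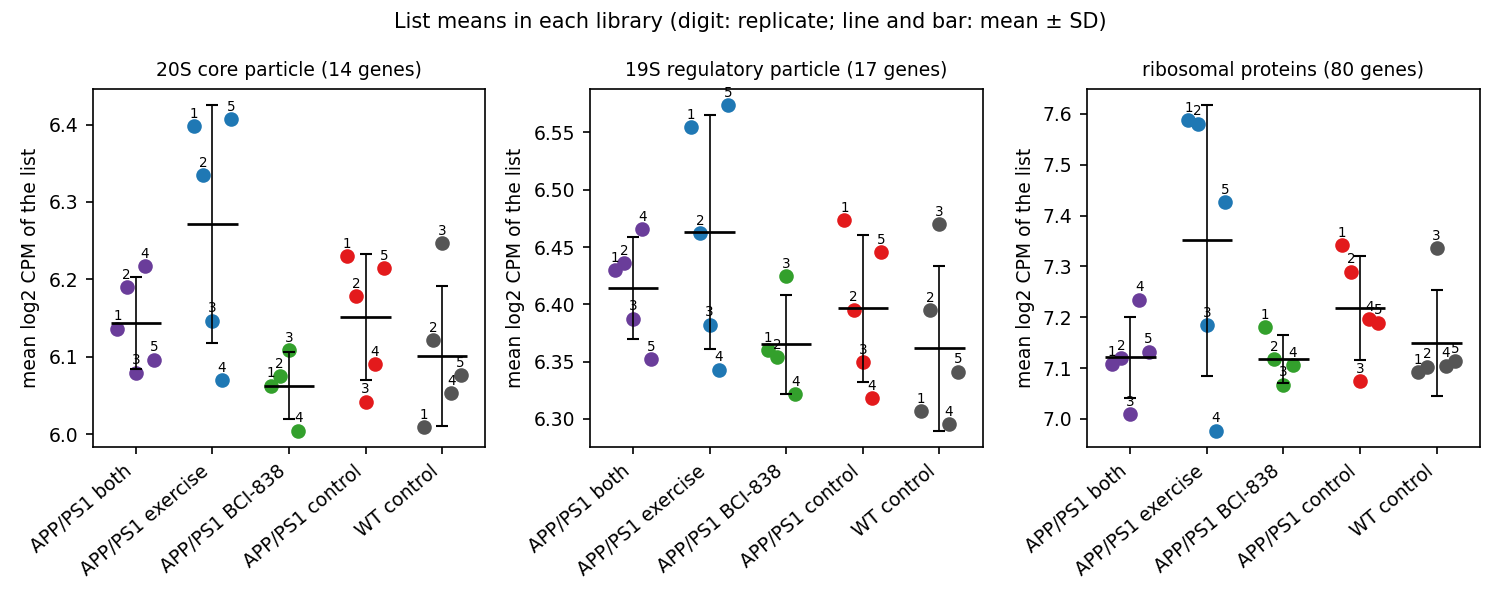
Mean log2 CPM of the 14 genes of the 20S core particle, of 17 genes of the 19S regulatory particle and of 80 ribosomal protein genes in each library (digits are replicate numbers, lines and bars are mean ± SD). In all 3 panels exercise replicates 1, 2 and 5 stand above replicates 3 and 4, and for the core particle these 3 are above every other library.

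The same exercise libraries also differed in transcripts outside the proteasome. The mean log2 CPM of 80 ribosomal protein genes was 7.59, 7.58 and 7.43 in exercise replicates 1, 2 and 5, 7.18 and 6.98 in replicates 3 and 4, and 7.01 to 7.34 elsewhere. Over the 24 libraries the mean of the standard subunits and that of the ribosomal protein genes had a Pearson r of 0.82 and a Spearman rho of 0.74. Around the group means r was 0.79. Without exercise replicates 1 and 2, and with group means left in, r was 0.76. For 36 Nduf genes of respiratory complex I, r was 0.85 and rho 0.74, and r was 0.84 around the group means. The 5 astrocyte markers ran the other way, with an r of -0.67. All these values come from the same libraries and share their scaling, so they are given as descriptions. With total counts r was 0.16. The part of these measures in the levels of the proteasome genes was not tested.

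The combined treatment was compared with APP/PS1 controls. The members were split almost evenly, 21 above 0 and 18 below, with a median log2 fold change of 0.00 against -0.01 over all genes. EdgeR called 0 of the 39 (0% of all genes), and 1 member, Psmb9, had an unadjusted p under 0.05 (10.6% of all genes did, 5.73% on the lower side). DESeq2 and voom called 0 members (0.448% and 0% of all genes). In 0 members were the groups free of overlap (1.01% of all genes). The standard subunits lay between -0.07 and 0.08, with widest single-gene 95% limits of -0.24 and 0.24. The medians of the roles lay between -0.01 and 0.06, and were 0.00 in the alpha ring, -0.01 in both kinds of beta gene, 0.01 in the base ATPases and 0.02 in the lid. All 8 microglial markers were higher in the combined group, 6 of them at an unadjusted p under 0.05, with a mean log2 CPM of 4.98 to 5.47, against 4.91 to 5.13 in APP/PS1 controls. All 3 measured blood genes were lower at an unadjusted p under 0.05, and so were 2 of the 5 dorsal midbrain markers, all 5 of which lay below 0. Their part in the proteasome values was not tested. All 10 choroid plexus markers were lower, 8 at an unadjusted p under 0.05. The median of the members was 0.02 without the 4 libraries high in Ttr and -0.03 with a choroid plexus covariate.

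Psmb9 was at 0.851, 1.14, 1.61, 1.98 and 1.08 CPM in the combined group, against the APP/PS1 controls given above at 1.90 CPM (± 0.354 SD, n = 5). Replicates 1, 2 and 5 of the combined group lay below every control and replicates 3 and 4 within them. On the log2 scale the difference was -0.51 (standard error 0.24, edgeR adjusted p = 0.470), with 95% limits of -1.01 and -0.00378. It ran between -0.70 without replicate 4 of the combined group and -0.39 without its replicate 1, and every adjusted p over the alternatives lay between 0.289 and 0.817. The BCI-838 and combined groups share the APP/PS1 controls, so their values for Psmb9 are not independent. Psmb8 and Psmb10 were at -0.03 and 0.01 in the combined group. Psmc6, a base ATPase, had a log2 fold change of 0.08 (standard error 0.06, edgeR adjusted p = 0.643), and Psmd2, a base scaffold, had one of 0.07 (standard error 0.06, edgeR adjusted p = 0.686). With the choroid plexus covariate Psmc6 was at -0.0024 and Psmd2 at 0.02.

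**Figure D4:**
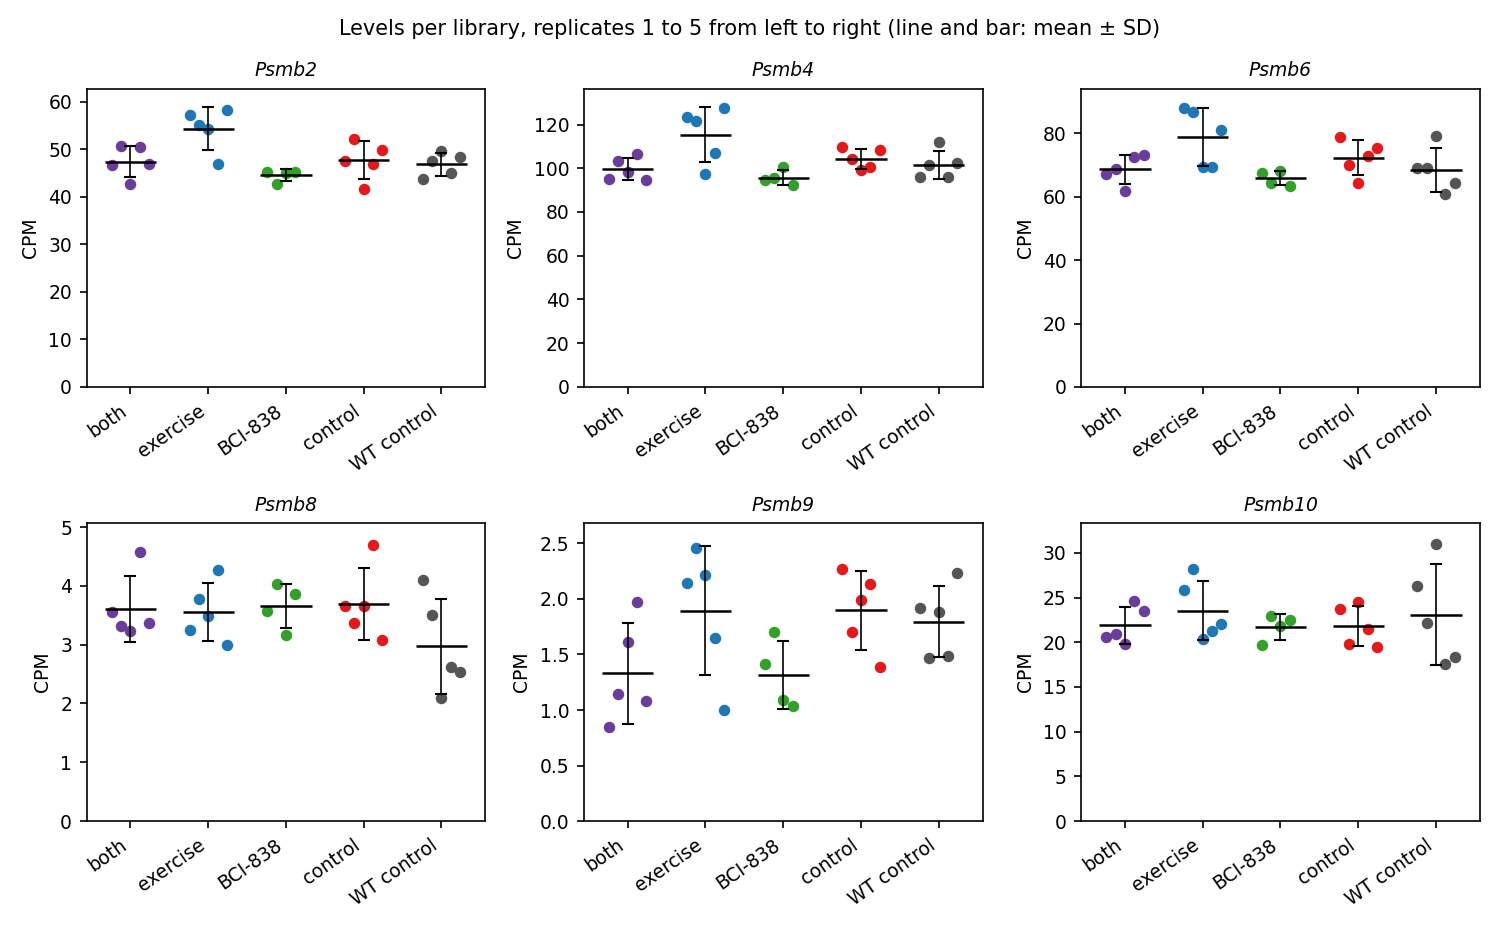
CPM in every library of Psmb2, Psmb4 and Psmb6, standard beta subunits, and of Psmb8, Psmb9 and Psmb10, the immunoproteasome subunits (replicates 1 to 5 from left to right, lines and bars are mean ± SD, y axes start at 0). Psmb4 spans 94.5 to 106 CPM in the combined group and 97.4 to 127 CPM in the exercise group, and Psmb9 0.851 to 1.98 CPM in the combined group and 1.39 to 2.27 CPM in APP/PS1 controls.

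The lowest p values of the standard subunits were found between the combined treatment and the wheel alone. Of the members 8 lay above 0 and 31 below, with a median log2 fold change of -0.09 against -0.02 over all genes. EdgeR called 0 of the 39 (0% of all genes), and in 0 members were the groups free of overlap (1.4% of all genes). An unadjusted p under 0.05 was reached by 9 of the 39, all on the lower side, where 17.6% of all genes did in either direction and 8.83% on the lower side: Psmb4, Psmb2, Psmd4, Psmb6, Psma1, Psmb3, Psmc5, Psma7 and Psmd9. DESeq2 called 0 members (1.99% of all genes). Voom called 5, or 12.8% of members against 5.41% of all genes: Psmb4, Psmb2, Psmb3, Psmb6 and Psmd4. By role, 4 of 4 non-catalytic beta genes (median -0.19), 7 of 7 alpha ring genes (-0.11), 3 of 3 catalytic beta genes (-0.10), 7 of 8 lid genes (-0.05) and 5 of 6 base ATPases were on the lower side. Among the other base genes 1 of 3 was, and among the assembly chaperones 1 of 3.

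Psmb4 (chr3:94884093-94886961), a beta subunit without proteolytic activity, was at 95.3, 103, 98.4, 106 and 94.5 CPM in the combined group, against 123, 122, 97.4, 107 and 127 CPM in the exercise group. Exercise replicates 1, 2, 4 and 5 lay above every library of the combined group, and replicate 3 lay within it. This came to a log2 fold change of -0.21 (standard error 0.07, edgeR adjusted p = 0.148). By voom it was -0.26 (adjusted p = 0.0287). Without exercise replicate 3 edgeR gave -0.27 (adjusted p = 0.0404), and 2 members were then called, Psmb4 and Psmd4. The share of all genes called in that fit is not reported here, so this count has no background.

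Psmb2 was at 46.6, 50.6, 42.6, 50.5 and 46.8 CPM in the combined group, against 57.2, 55.2, 54.2, 46.9 and 58.3 CPM in the exercise group. Exercise replicate 4 again lay among the combined libraries. Its log2 fold change was -0.20 (standard error 0.07, edgeR adjusted p = 0.162). Psmd4, the ubiquitin receptor, was at 79.6, 84.4, 80.5, 88.9 and 79.8 CPM in the combined group, against 100.3, 101, 78.2, 91.2 and 97.8 CPM in the exercise group. Exercise replicate 3 was the lowest of these 10 libraries, so the combined group lay inside the range of the exercise group. The log2 fold change of Psmd4 was -0.18 (standard error 0.07, edgeR adjusted p = 0.184), and without exercise replicate 3 it was -0.24 (adjusted p = 0.0444 by edgeR). Psmb6, the caspase-like catalytic subunit, was at 67.2, 68.9, 61.9, 72.7 and 73.1 CPM in the combined group, against 88.2, 86.9, 69.5, 69.3 and 81.2 CPM in the exercise group. Replicates 1, 2 and 5 of the exercise group lay above the whole combined group, and the other 2 within it. Psmb6 had a log2 fold change of -0.20 (standard error 0.08, edgeR adjusted p = 0.200), while Psmb5 and Psmb7 were at -0.09 and -0.10. Psmb9 was at 0.851, 1.14, 1.61, 1.98 and 1.08 CPM in the combined group, against 2.15, 2.46, 2.22, 1.65 and 1.00 CPM in the exercise group, whose range held 4 of the 5 combined values. The difference of combined minus exercise was -0.51 on the log2 scale (standard error 0.24, edgeR adjusted p = 0.285). Psmb8 was at 0.02 and Psmb10 at -0.10.

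Markers of cell types were also compared between these groups, where edgeR called 0% of all genes. The 6 endothelial markers had a mean log2 CPM of 4.67 to 4.99 in the combined group, against 5.00 to 5.41 in the exercise group, with no overlap, and 4 of the 6 were lower at an unadjusted p under 0.05. All 5 oligodendrocyte markers and all 5 dorsal midbrain markers were on the lower side in the combined group, with 0 and 1 of them at an unadjusted p under 0.05. The oligodendrocyte list ran from 7.45 to 9.96 in the combined group, against 8.75 to 9.46 in the exercise group, and the midbrain list from -3.53 to 2.03 in the combined group, against -3.06 to 3.83 in the exercise group. Of the 3 measured blood genes, 3 were lower at an unadjusted p under 0.05. Their part in the proteasome values was not tested. In bulk tissue, fewer cells of a type and less RNA per cell cannot be told apart.

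The combined treatment was also compared with BCI-838 alone. Here 32 members lay above 0 and 7 below, with a median log2 fold change of 0.06 against -0.01 over all genes. EdgeR called 0 of the 39 (0% of all genes), and 1 member, Psmd13, had an unadjusted p under 0.05 on the higher side (7.48% of all genes did, and 14.3% in either direction). DESeq2 and voom called 0 members, against 1.4% and 4.79% of all genes. The groups did not overlap for 3 members (4.3% of all genes), each with all 5 libraries of the combined group above all 4 of the BCI-838 group: Psmd13, Psmc3 and Psmb7. All 14 core particle genes were on the higher side, between 0.04 and 0.20, as were 5 of 6 base ATPases and 7 of 8 lid genes. Psmd13, a lid gene, was at 66.1, 70.2, 63.1, 66.7 and 67.4 CPM in the combined group, against 57.7, 61.3, 60.03 and 61.4 CPM in the BCI-838 group. Its log2 fold change was 0.15 (standard error 0.06, edgeR adjusted p = 0.267). Psmd13 shares exons with Sirt3 on the opposite strand. Psmb7 was at 100.3 CPM (± 3.16 SD, n = 5) in the combined group, against 93.7 CPM (± 2.41 SD, n = 4) in the BCI-838 group, and Psmc3, a base ATPase named after its values were seen, averaged 132 CPM (± 5.55 SD, n = 5) in the combined group and 119.7 CPM (± 5.03 SD, n = 4) in the BCI-838 group. Psmb5 had a log2 fold change of 0.20 (standard error 0.11, edgeR adjusted p = 0.410) and Psmc2 one of 0.10 (standard error 0.06, edgeR adjusted p = 0.428). Psmb8, Psmb9 and Psmb10 lay between -0.02 and 0.02. The astrocyte list had a mean log2 CPM of 7.17 to 7.36 in the combined group, against 7.42 to 7.62 in the BCI-838 group, with no overlap, and 1 of 5 markers was lower at an unadjusted p under 0.05. All 5 dorsal midbrain markers were lower, 3 at an unadjusted p under 0.05, with a mean of -3.53 to 2.03 in the combined group, against 2.80 to 3.76 in the BCI-838 group. All 8 microglial markers were higher, 4 at an unadjusted p under 0.05, with a mean of 4.98 to 5.47 in the combined group, against 4.97 to 5.09 in the BCI-838 group. All 6 endothelial markers were lower, 1 at an unadjusted p under 0.05. The part of these transcripts was not tested.

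The interaction asks whether the drug and the wheel together differ from the sum of each alone. Of the members 15 lay above 0 and 24 below, with a median of -0.02 against -0.01 over all genes on the log2 scale. EdgeR, DESeq2 and voom each called 0 of the 39 (0%, 0.421% and 0% of all genes). Of the members 0 had an unadjusted p under 0.05 (9.6% of all genes did). The smallest p values were those of Psmd4, at -0.16 (standard error 0.10, edgeR adjusted p = 0.609), Psmc5, a base ATPase, at -0.20 (standard error 0.12, edgeR adjusted p = 0.609), and Psmd12, a lid gene, at -0.10 (standard error 0.08, edgeR adjusted p = 0.733). Single-gene 95% limits of the standard subunits reached -0.45 and 0.43. The catalytic genes Psmb5, Psmb6 and Psmb7 were at 0.12, -0.07 and 0.01, and Psmb8, Psmb9 and Psmb10 at 0.04, 0.03 and -0.10. All 6 endothelial markers were below 0, 3 at an unadjusted p under 0.05, and 9 of 10 choroid plexus markers above 0, 8 at an unadjusted p under 0.05. The part of the endothelial transcripts was not tested. The median of the members was 0.00 without the 4 libraries high in Ttr and 0.01 with a choroid plexus covariate.

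Within groups the standard subunits were steady. Their median within-group SD was 0.10 on the log2 scale, from 0.07 for Psmc2 to 0.17, against 0.15 over the 8760 genes in the same range of levels. That range ran from 3.63 to 7.64 mean log2 CPM, and levels were not matched inside it. The part of level in this difference was not tested. The immunoproteasome genes had a median SD of 0.25. The standard subunits also varied together from library to library. Over the 24 libraries, around the group means, the 561 pairs of standard subunits had a median Pearson r of 0.60, and 93.6% of the pairs were positive. Pairs of the 8760 genes in the same level range had a median r of 0.01, with 51.3% positive. Within the core particle the median was 0.74 and 100% of the 91 pairs were positive. It was 0.52 within the regulatory particle and 0.63 between core and regulatory particle.

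The gene nearest to the mean of the other standard subunits was Psma7 (r = 0.93), followed by Psmb1 (0.92) and Psmb7 (0.91). Not all standard genes followed. Psmd5, an assembly chaperone that leaves the finished particle, was at -0.14, Psmc6 at 0.16, Psmd1 at 0.22 and Psmd11 at 0.37. The genes nearest to Psmc6 were Psmd1 (r = 0.60) and Psmd2 (r = 0.49), and Psmd1 and Psmd2 were at 0.88 with each other. These genes were picked for their place in the order. Psmb10 was at 0.35, Psmb9 at -0.10 and Psmb8 at -0.46. Pairs of an immunoproteasome and a standard gene had a median r of -0.09, and 41.2% were positive. Between the immunoproteasome genes r was 0.14 to 0.31. These correlations rest on 24 libraries that share depth and scaling, and are given as descriptions.

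**Figure D5:**
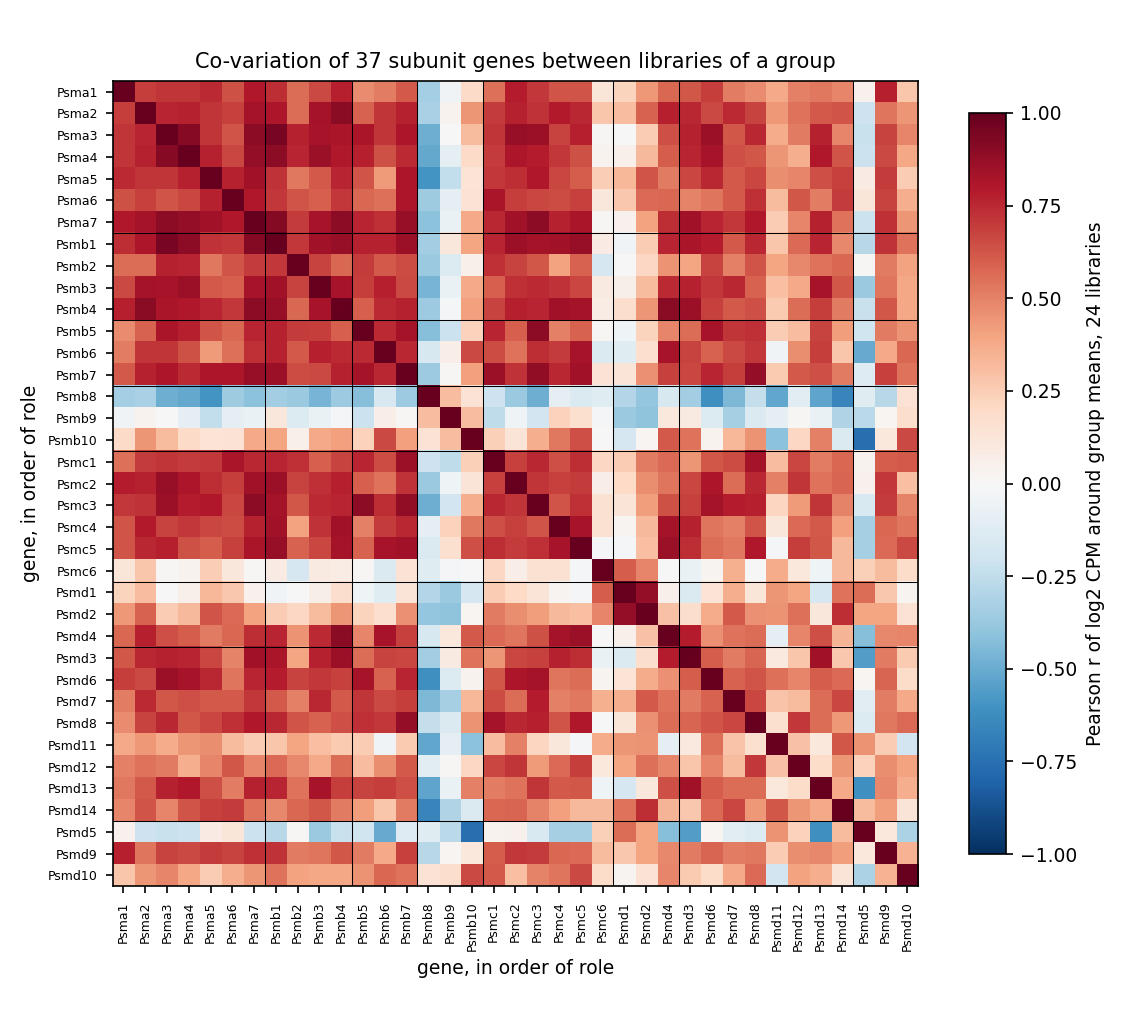
Pearson r between 37 members over 24 libraries, of log2 CPM around the group means, with genes in order of role and lines between roles (red positive, blue negative). The core particle block is red throughout, with r from 0.43 to 0.95, and the rows of Psmb8, Psmb9, Psmc6, Psmd1 and Psmd5 are paler or blue.

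Partner genes of the proteasome were not called either. Of a list of 20 partner symbols 16 were measured, and 0 were called by edgeR in any comparison. The list covers activators, chaperones of core assembly, deubiquitinases, ligases and others at the particle. Sem1 and Shfm1 in it are symbols of the same gene, which was measured as Shfm1. With the combined treatment against the wheel, 8 of the 16 had an unadjusted p under 0.05, 3 higher and 5 lower, where 17.6% of all genes did. Ube3c, a ligase that works at the proteasome, averaged 109 CPM (± 13.9 SD, n = 5) in the combined group and 91.7 CPM (± 8.60 SD, n = 5) in the exercise group, with a log2 fold change of 0.25 (standard error 0.08, edgeR adjusted p = 0.150). Psmg2, a chaperone of core assembly, had one of -0.24 (standard error 0.09, edgeR adjusted p = 0.183). In the combined group against APP/PS1 controls, Psme4, an activator cap, had a log2 fold change of 0.20 (standard error 0.07, edgeR adjusted p = 0.333) and Ube3c one of 0.21 (standard error 0.08, edgeR adjusted p = 0.386), the 2 partners at an unadjusted p under 0.05 there. Among partners the lowest p values belonged to Psme4 and Adrm1 for the transgenes, with log2 fold changes of -0.10 and 0.11, to Psmg4 (-0.27) and Txnl1 (0.10) for the drug, to Psmg3 (0.22) and Psmg2 (0.16) for the wheel, to Psme1 (-0.18) and Psme4 (0.13) for the combined group against BCI-838 alone, and to Psme1 (-0.26) and Psmf1 (-0.19) for the interaction.

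The 8 genes of proteasome transcription were all measured and 0 were called. Nfe2l1 was abundant, between 252 and 354 CPM. It averaged 326 CPM (± 12.8 SD, n = 5) in the combined group, 298 CPM (± 29.1 SD, n = 5) in the exercise group, 327 CPM (± 9.17 SD, n = 4) in the BCI-838 group, 310.1 CPM (± 24.4 SD, n = 5) in APP/PS1 controls and 317 CPM (± 26.9 SD, n = 5) in WT controls. Its log2 fold changes lay between -0.06 and 0.13. Nfe2l2 was low, averaging 15.4 CPM (± 3.09 SD, n = 5) in the combined group, 15.3 CPM (± 0.827 SD, n = 5) in the exercise group, 16.1 CPM (± 1.41 SD, n = 4) in the BCI-838 group, 16.3 CPM (± 1.59 SD, n = 5) in APP/PS1 controls and 14.7 CPM (± 2.67 SD, n = 5) in WT controls, with log2 fold changes between -0.09 and 0.15. Mafg, a small Maf protein that pairs with both factors, had a log2 fold change of 0.23 (standard error 0.08, edgeR adjusted p = 0.152) in the combined group against the exercise group and of -0.19 (standard error 0.08, edgeR adjusted p = 0.732) in the exercise group against APP/PS1 controls. Keap1, which holds Nfe2l2 in check, was at 0.14 in the combined group against BCI-838 alone, also at an unadjusted p under 0.05. The rest of the smallest p values of this list belonged to Mafg (-0.13) for the transgenes, Mafg (0.08) for the drug, Keap1 (0.09) for the wheel, Maff (-0.54) and Keap1 (0.08) for the combined group against controls, Ddi2 (0.26) against the wheel, Maff (-0.54) against BCI-838 alone, and Mafg (0.15) and Ddi2 (0.23) for the interaction.

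Of 16 gene symbols of ubiquitin supply and delivery 15 were measured and 0 were called. Ufd1 and Ufd1l among them are symbols of the same gene, which was measured as Ufd1l. In the combined group against the exercise group 3 of the 15 had an unadjusted p under 0.05, where 17.6% of all genes did. With the drug against APP/PS1 controls 9 lay above 0 and 6 below, and 1 on the lower side had an unadjusted p under 0.05, where 10.2% of all genes did. For the combined group against the exercise group Rps27a, which encodes ubiquitin fused to a ribosomal protein, had the smallest p. It was at 156, 165, 148, 189.8 and 161 CPM in the combined group, against 231, 241, 173, 171 and 203 CPM in the exercise group. Exercise replicates 1, 2 and 5 lay above the whole combined group. The fitted log2 difference was -0.31 (standard error 0.10, edgeR adjusted p = 0.142). Genes of ribosomal proteins have many processed pseudogenes, and the sources used here do not say how reads that map to several places were counted. Npepps, a cytosolic peptidase, was at 0.14 in the combined group against the exercise group and at 0.10 with the drug. Others named by their p were Ubqln1 (-0.09) and Npepps (-0.06) for the transgenes, Rps27a (0.18) for the wheel, Ubqln1 (0.10) for the combined group against controls, Uba6 (-0.27) against BCI-838 alone, and Ubqln2 (0.19) and Rps27a (-0.23) for the interaction.

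The 11 genes of MHC class I presentation and interferon-gamma signalling were all measured and 0 were called. In the combined group against the exercise group 9 lay below 0 and 2 above, and the activator caps Psme1 and Psme2 had log2 fold changes of -0.22 (standard error 0.09, edgeR adjusted p = 0.199) and -0.21 (standard error 0.10, edgeR adjusted p = 0.270). The combined group against APP/PS1 controls had 8 below and 3 above, led by Tapbp (-0.22) and Tap2 (-0.22). With the drug alone 9 lay below and 2 above, led by Psme2 (-0.16) and Tap2 (-0.17). For the transgenes 9 lay above and 2 below, led by Tapbp (0.20) and Psme1 (0.12). With the wheel 6 lay above and 5 below, led by Tap2 (-0.16) and Psme1 (0.08). Against BCI-838 alone the combined group had 8 below and 3 above, led by Psme1 (-0.18) and Nlrc5 (-0.33), and the interaction 9 below and 2 above, led by Psme1 (-0.26) and H2-K1 (-0.21).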

How the data were processed

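Total RNA from snap-frozen dentate gyrus (RNA integrity of at least 8.4, per the labels) was sequenced. The authors deposited whole-number read counts per gene for 26667 genes in 24 libraries, made with STAR and HTSeq on mm10, per the submitters' processing notes, which also name DESeq. No tool version, annotation or strand setting is given, so genes that overlap or have near copies, 11 members with exon overlap and 3 with named pseudogenes among them, are less certain. Groups were taken from the labels. Columns were tied to libraries by the sample descriptions, which end in the column names, and 0 columns belonged to no sample. Totals of 48656360 to 64632882 counts limit single genes by the spread between libraries rather than counting, except Psma8 and Psmb11. Psmb9, with 46 to 149 counts per library, also rests on low counts. No 2 libraries were near-identical, the lowest chi-square between any pair being 18.3 per gene. The labels speak of 5 mice per group without tying a library to a mouse, so p-values measure the spread between these libraries.

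Genes were filtered with edgeR's filterByExpr (minimum count 10, minimum total 15), scaled by TMM and fitted over all 24 libraries by group with edgeR's robust quasi-likelihood test. P-values were adjusted by Benjamini-Hochberg over 18286 genes, and a gene was called under 0.05. CPM values are linear; log2 CPM used a prior count of 2. Levels per length divide mean CPM by the median length of the principal GENCODE M21 transcripts. Scores are means of log2 CPM. The code was tested on simulated data. Alternatives were DESeq size factors, no filter, DESeq2, limma voom with quality weights, replicate number as a block, the compared libraries alone, leaving out the 4 libraries with Ttr above 100 CPM, a choroid plexus covariate, and leaving out each library. Versions were R 4.3.3, edgeR 4.0.16, limma 3.58.1, DESeq2 1.42.0, Python 3.11.15, pandas 2.3.3 and matplotlib 3.10.9.

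The members, lists and tests were chosen with earlier results of these data known. In each comparison the rule named up to 10 called members in each direction or, with fewer than 3 called, the 3 with the smallest p, always the catalytic and immunoproteasome genes, and from each companion list the 2 with the smallest p, with Nfe2l1 and Nfe2l2 always. Some genes that this rule names in the ubiquitin list are not reported here. Any other gene named (for its place in an order, or in a list behind a count) was picked after its values were seen. The comparisons of BCI-838, exercise and both with APP/PS1 controls share those controls, and no overlap between them was computed.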

Additional observations from a re-analysis of the deposited data

Results flagged for a closer look

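Values standing apart from their own group by Dixon's criterion (the gap to the nearest library over the group's range) were found in 5 of 100 groups of values checked, 5%, and chance gives about 1 in 20. Psmb8 was at 4.57 CPM in replicate 4 of the combined group, against 3.23 to 3.55 CPM in its other 4 libraries. Psmb2 was at 42.7 CPM in BCI-838 replicate 2, against 45.0 to 45.3 CPM in the other 3, and Psmc6 at 48.3 CPM in BCI-838 replicate 3, against 45.3 to 45.7 CPM. The members' share of all counts was 0.273% in BCI-838 replicate 3, against 0.263% to 0.264% in the rest of that group. Psmd12, a lid gene, was at 54.6 CPM in WT replicate 4, against 62.7 to 65.3 CPM in the other WT controls.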

How the results depend on the processing

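Over 32 settings the median log2 fold change of the 39 members lay between 0.01 and 0.08 for the transgenes, -0.10 and -0.05 for BCI-838, 0.04 and 0.13 for the wheel, -0.03 and 0.02 for the combined treatment against controls, -0.14 and -0.05 for it against the wheel, 0.04 and 0.08 for it against BCI-838 alone, and -0.06 and 0.01 for the interaction. Members called moved from the 0 of edgeR's full fit under 2 kinds of setting. Limma voom with quality weights called 5 in the combined group against the exercise group and 10 among the 5 groups. Leaving out 1 library gave 0 to 2 calls in the combined group against the exercise group (2 without exercise replicate 3, Psmb4 and Psmd4) and 0 in every other comparison of 2 groups and in the interaction. The cause was not tested, and the share of all genes called in the fits without 1 library is not reported here. All other settings gave 0 calls. Among 1856 values of members under other settings, all of members not called in the full fit, 83 had the other sign. The 5 groups were not tested with DESeq2 or with the compared libraries alone. With the replicate number as a block, 0 members were called in each comparison. Same-numbered libraries had correlations of their deviations between -0.26 and 0.40, and not every pair was over 0.1. The numbers were therefore not taken as pairs in the main fit. With 4 or 5 pairs a comparison, these correlations cannot decide whether the numbers pair the mice. With 4 or 5 libraries a group, single-gene 95% limits of the standard subunits reached -0.45 and 0.43 on the log2 scale. Psmb9, Psma8 and Psmb11 rest on low counts. Some markers of endothelium, microglia, astrocytes, midbrain and choroid plexus had an unadjusted edgeR p under 0.05 in the comparisons above, which is short of a call.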
